A study of Mus musculus with 6 samples.

Results

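Spleen RNA of untreated, overtly diabetic NOD mice was compared with that of NOD mice treated with trichostatin A (TSA). The study calls the treated mice cured of diabetes. The comparison used 4 of the 6 expression arrays of the series. The members were chosen by sample title alone: the 2 arrays of sick mice and the 2 arrays of TSA-treated mice. All mice were female NOD mice, a strain in which T cells destroy the insulin-producing cells of the pancreas without any induction. The diabetic group had no drug. The TSA-treated group had weekly subcutaneous injections of 500 µg/kg TSA between 18 and 24 weeks of age. By the methods, these mice had no diabetes by 18 weeks, and treated mice that stayed diabetic were left out. The groups therefore differ in treatment and also in selection by outcome. The labels put every mouse at 32 to 36 weeks, whereas the methods give 24 to 28 weeks for the diabetic and 28 to 34 weeks for the cured mice, so the groups may also differ in age. The RNA of each group was 1 pool, of 3 to 5 mice by the labels and 4 to 6 by the methods, labeled and hybridized 2 times. The spread between duplicates is therefore technical, so the p-values below say how well the hybridizations separate, with the differences between mice left out. The 2 untreated non-diabetic arrays entered only the estimate of the spread, and their levels are given as a reference.

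TSA blocks histone deacetylases, the enzymes that take acetyl groups off histones and other proteins, and so changes which genes are transcribed. The spleen filters blood, stores B and T lymphocytes and, in the mouse, makes red cells, neutrophils and platelets throughout life. Acinar cells of the exocrine pancreas, which lies along the spleen, make the digestive enzymes and pack them as inactive zymogens into granules. The labelled tissue was borne out on the 4 arrays by the B cell gene Ms4a1, at 9.60 to 11.46, the neutrophil gene S100a9, at 13.20 to 13.68, and the follicular chemokine Cxcl13, at 9.96 to 11.35. In whole spleen RNA, fewer cells of a type and less RNA per cell cannot be told apart.

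Values are RMA levels on the log2 scale, and a difference is the mean of the diabetic minus the mean of the TSA-treated arrays, so that a positive value is higher in diabetic mice. Of 45037 probe sets tested with limma and Benjamini-Hochberg adjustment, 11 were higher in diabetic mice and 1 was higher in TSA-treated mice at an adjusted p under 0.05, together 0.0266% of those tested (0.0244% and 0.00222%). All 12 had adjusted p = 0.0448 by limma; the next, a further probe set of the trypsin gene Prss2, had 0.0503. The 12 probe sets named 11 genes. By its brightest probe set, 9 genes were called higher in diabetic (0.0495%) and 1 in TSA-treated mice (0.0055%), together 0.055% of genes. Of the 11 genes, 8 code for secreted enzymes of the pancreas, 2 (Car3 and Adipoq) are best known from fat cells, and 1 (Stfa2l1), the gene higher in TSA-treated mice, codes for a protease inhibitor of the stefin A family.

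The 2 arrays of a side differed from each other about as much as arrays of the 2 sides did. Across probe sets, which are not independent replicates, the diabetic duplicates correlated at 0.973 and the TSA-treated duplicates at 0.966, while diabetic replicate 2 and TSA-treated replicate 1 correlated at 0.990. Between these 2 arrays, 148 probe sets were over 1 higher in diabetic and 331 over 1 higher in TSA-treated mice, against 3358 and 773 between diabetic replicate 2 and TSA-treated replicate 2. TSA-treated replicate 2 had the widest gap between the 3′ and 5′ control probe sets of beta-actin, 5.61, against 3.45 on TSA-treated replicate 1, 2.42 and 3.32 on diabetic replicates 1 and 2, and 2.35 and 2.05 on the untreated non-diabetic arrays. A wide gap is a sign of shorter RNA or shorter labeled product, and its part in the differences below was not tested. The calls depended on which arrays entered: without TSA-treated replicate 1 limma called 921 probe sets higher in diabetic and 126 higher in TSA-treated mice, and without any other array it called 0 in either direction, with between 880 and 3642 probe sets at an unadjusted p under 0.05.

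All 10 genes called by their brightest probe set lost the call with the replicate number as a block, with the crossed block, with the 2 groups alone and with median centring. Under other alternatives some were lost: Pnliprp1 and Stfa2l1 were not called by the LPE test, Cpb1, Pnliprp1 and Stfa2l1 not with an intensity trend in limma, Cela3b, Cpb1, Pla2g1b and Pnliprp1 not after renewed quantile normalization, and Car3 and Pla2g1b not when all probe sets of a gene were averaged.

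Over the 18193 genes, each given by its brightest probe set, both diabetic arrays lay above both TSA-treated arrays for 12.4% and below both for 16.2%. The difference of means was also larger than both duplicate gaps for 6.45% and 9.04%, and the unadjusted p from limma was under 0.05 for 2.81% and 2.68%. A stricter reading, chosen after seeing the data, asked for a difference over 1 in all 4 pairs of a diabetic with a TSA-treated array. It left 29 genes higher in diabetic mice (0.159% of genes) and 6 higher in TSA-treated mice (0.033%). Of the 29, 23 stand on the lists of digestive enzymes and other acinar cell genes and 1 more is the pancreatic trypsin gene 2210010C04Rik; the other 5 were Car3, Adipoq, Ighg3, Dcn and D13Ertd608e, a gene of unknown function. The 6 were Stfa2l1, Stfa3, Saa3, Apol11b, Pla2g4c and Hbb-y.

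**Figure D1:**
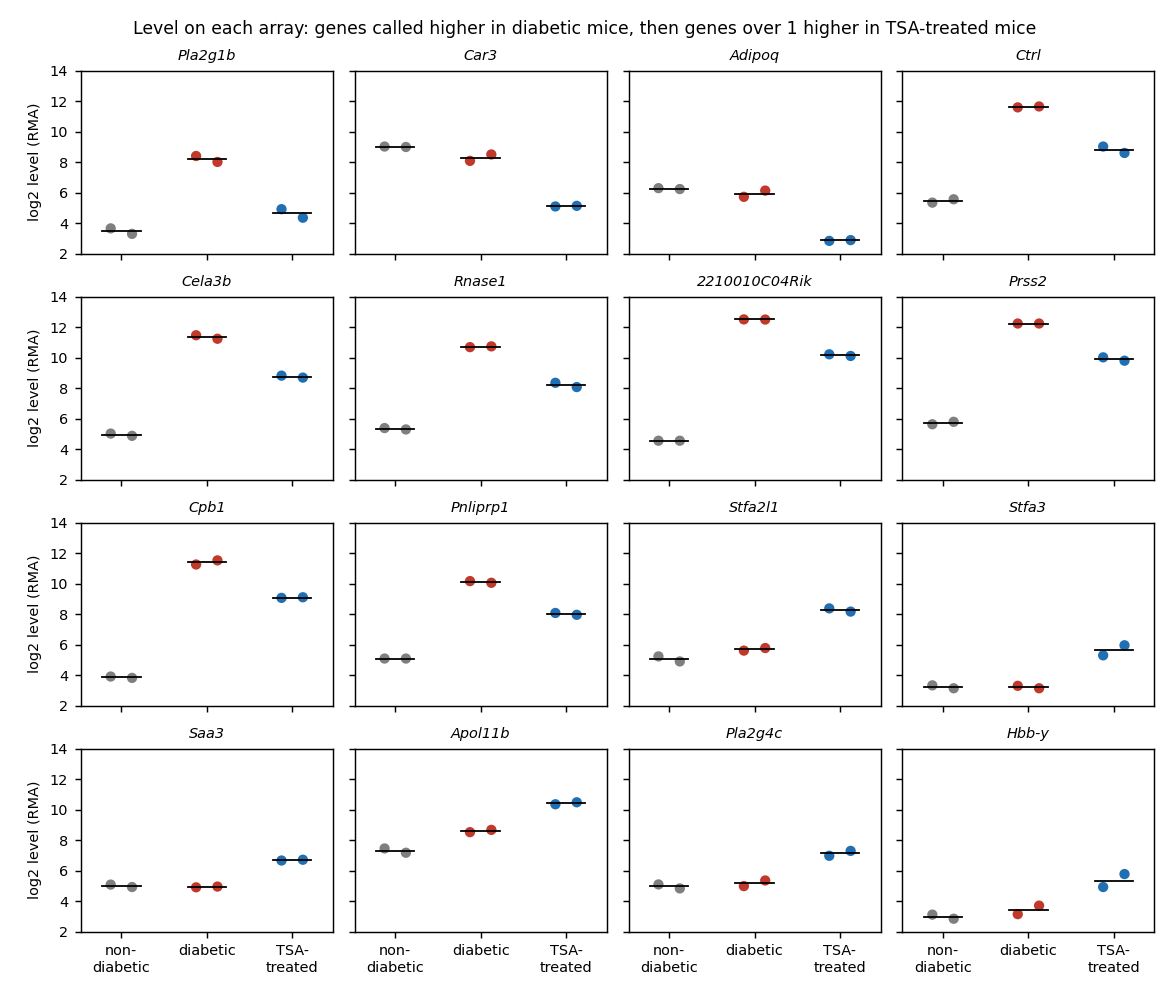
Log2 level (RMA) of 16 genes across all 6 arrays, with a dot for every array and a bar at each group mean. The first 10 panels are the genes called higher in diabetic mice, in which the pancreatic enzymes lie lowest in non-diabetic mice while Car3 and Adipoq lie lowest in TSA-treated mice; the last 6 are the genes over 1 higher in TSA-treated mice on all 4 array pairs.

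Pancreatic digestive enzymes separated the groups most. Of 26 listed enzymes and colipase, 18 had a probe set that names them alone, and all 18 differences lay above 0, with a median of 2.51 against -0.02 over all genes. Limma called 6 of the 18 higher in diabetic mice and none lower, against 0.0495% and 0.0055% of all genes. For 16 both diabetic arrays lay above both TSA-treated arrays, against 12.4% of all genes. The list median hardly depended on the arrays compared, at 2.59 and 2.55 for diabetic replicate 1 against TSA-treated replicates 1 and 2, and at 2.60 and 2.63 for diabetic replicate 2. Over the 18 probe sets the log2 of the summed signal was 15.40 and 15.37 on the diabetic, 12.81 and 12.47 on the TSA-treated and 9.57 and 9.47 on the untreated non-diabetic arrays. The enzymes therefore stood between the other groups in TSA-treated mice, a median of 2.90 above non-diabetic mice, where diabetic mice stood 5.73 above them.

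The promoters of 4 of the called enzyme genes are printed for what acinar genes are known to share. PTF1, the transcription factor complex of acinar cells, binds a bipartite site of an E-box, CACCTG, and a TC-box, TTTCCCA. Each line gives the 300 bases from 250 before to 50 after the gene's start, on the gene's strand, from RefSeq (GRCm38.p6), and capitals mark either motif on either strand.
Cela3b, chr4:137430471-137430770, minus strand: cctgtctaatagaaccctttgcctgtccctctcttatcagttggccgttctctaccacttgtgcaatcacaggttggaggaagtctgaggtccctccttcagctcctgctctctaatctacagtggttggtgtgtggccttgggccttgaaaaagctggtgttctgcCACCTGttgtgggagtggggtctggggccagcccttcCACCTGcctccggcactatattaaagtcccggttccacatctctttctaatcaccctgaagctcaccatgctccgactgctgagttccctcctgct
Ctrl, chr8:105933813-105934112, minus strand: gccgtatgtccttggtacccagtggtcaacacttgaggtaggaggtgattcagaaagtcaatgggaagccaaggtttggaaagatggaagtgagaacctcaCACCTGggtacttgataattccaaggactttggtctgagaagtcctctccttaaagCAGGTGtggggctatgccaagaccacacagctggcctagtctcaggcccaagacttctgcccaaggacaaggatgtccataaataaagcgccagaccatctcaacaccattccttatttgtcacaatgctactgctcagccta
Prss2, chr6:41521526-41521825, plus strand: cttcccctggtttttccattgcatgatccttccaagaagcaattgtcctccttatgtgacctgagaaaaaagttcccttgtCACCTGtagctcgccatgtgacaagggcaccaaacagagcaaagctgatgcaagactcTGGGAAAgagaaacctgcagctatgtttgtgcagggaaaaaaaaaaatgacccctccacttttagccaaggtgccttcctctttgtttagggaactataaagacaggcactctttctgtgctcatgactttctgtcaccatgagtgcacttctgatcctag
Pla2g1b, chr5:115465892-115466191, plus strand: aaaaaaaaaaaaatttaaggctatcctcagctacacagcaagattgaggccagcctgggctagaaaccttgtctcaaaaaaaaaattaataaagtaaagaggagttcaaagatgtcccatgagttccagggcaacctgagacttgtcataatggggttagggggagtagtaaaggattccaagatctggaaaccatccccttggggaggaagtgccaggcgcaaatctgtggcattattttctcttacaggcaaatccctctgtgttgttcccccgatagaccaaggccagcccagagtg
The Prss2 promoter holds both motifs, though not side by side. Those of Cela3b and Ctrl hold the E-box in 2 places each, and that of Pla2g1b holds neither in this window. Of the called enzyme genes not printed, Cpb1 and 2210010C04Rik hold the E-box in 1 place each, and Rnase1 and Pnliprp1 hold neither motif. Among 9 promoters of genes called higher in diabetic mice, 5 held CACCTG (55.6%) and 1 held TTTCCCA (11.1%). Of 17 promoters of 16 listed enzyme genes with an entry, 10 held CACCTG (58.8%) and 5 held TTTCCCA (29.4%), against 20.2% and 8.06% of all 32851 promoters of the table. The GATA motif AGATAA, of a factor family that includes the red cell regulator GATA1, was in 3 of the 17 (17.6%), in 11 of 44 promoters of the red cell lists below (25%) and in 11.2% of all promoters. These counts describe letters in a window and not binding.

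Among the lipases, Pnliprp1, a relative of pancreatic lipase, measured 10.17 and 10.06 in diabetic and 8.08 and 7.96 in TSA-treated mice, a difference of 2.09 ± 0.15 (standard error, adjusted p = 0.0448 from limma), or 4.26-fold. Pla2g1b, which cuts phospholipids in the gut, measured 8.40 and 8.01 against 4.91 and 4.35 and had the largest called difference, 3.57 ± 0.27, or 11.9-fold. This rests on 1 of its 4 probe sets; the next, at 4.91 and 5.02 against 3.92 and 4.06, differed by 0.98 (adjusted p = 0.902 from limma), and the rest lay near background. Cel, the bile salt-dependent lipase, at 10.30 and 10.65 against 7.22 and 6.25, and Pnliprp2, at 8.65 and 9.14 against 6.49 and 6.54, did not pass the test at the same adjusted p of 0.0669, although the 4 arrays did not overlap for either. Clps, colipase, which anchors lipase to fat droplets, missed narrowly with 12.47 and 12.28 against a TSA-treated mean of 9.93 (difference 2.44, adjusted p = 0.0503 from limma).

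Among the peptidases, Ctrl, a chymotrypsin-like protease, measured 11.59 and 11.65 against 9.02 and 8.60, higher by 2.81 ± 0.20 in diabetic mice. Cpb1, a carboxypeptidase that trims basic residues, measured 11.26 and 11.53 against 9.07 and 9.11, higher by 2.30 ± 0.17, and its TSA-treated arrays differed by less than any other called enzyme's. Cela3b, an elastase, was called in 2 of its 4 probe sets (2.60 and 2.52), and the 4 ranged from 2.52 to 3.48. All of these had an adjusted p of 0.0448 from limma. Of 4 Prss2 probe sets, whose differences ranged from 2.13 to 3.84, 1 was called, and 2210010C04Rik, from the trypsin cluster beside Prss2, measured 12.51 and 12.50 against 10.22 and 10.11, higher by 2.33 (adjusted p = 0.0448 from limma). These trypsin genes are near-identical copies, so that their probe sets may share signal.

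For other peptidases the TSA-treated arrays stood further apart than the diabetic ones. Ctrb1, chymotrypsinogen B, had the largest difference of any gene, 4.08 ± 0.56, with 12.47 and 12.21 against 9.18 and 7.34, and was not called (adjusted p = 0.342 from limma). Cela2a, at 11.42 and 11.50 against 8.72 and 7.30, and Cela1, at 12.19 and 12.18 against 9.55 and 8.49, were not called either. Cpa1, the carboxypeptidase for neutral residues, differed by 3.31 (8.83 and 8.08 under TSA, adjusted p = 0.0576 from limma), and Ctrc, chymotrypsin C, by 3.19 (adjusted p = 0.0669 from limma). Over the 18 enzymes the gap between duplicates had a median of 0.19 and a maximum of 0.49 in diabetic mice, and a median of 0.36 and a maximum of 1.84 in TSA-treated mice. Replicate 1 was the higher TSA-treated array in 11 of the 18.

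The nuclease Rnase1 measured 10.69 and 10.74 against 8.35 and 8.07 and was higher by 2.51 ± 0.17 in diabetic mice, at the shared adjusted p of 0.0448 (limma). The probe set that detects the pancreatic amylase copies as a group measured 12.91 and 13.17 against 10.55 and 10.07 (difference 2.73, adjusted p = 0.0524 from limma). The salivary form Amy1 was near background, at 2.76 and 3.20 against 2.39 and 2.91. Prss3, at 4.18 and 4.35 against 3.61 and 3.65, and Klk1, a kallikrein, at 7.16 and 6.86 against 6.74 and 6.99, were the other enzymes with a difference below 1.

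Of 21 other acinar cell genes, 0 passed the test, and the median difference was 0.49. At an unadjusted p under 0.05 from limma 11 were higher in diabetic and 1 in TSA-treated mice, against 2.81% and 2.68% of all genes. Among the zymogen granule proteins were Sycn, syncollin, at 11.61 and 11.22 against 8.85 and 8.55 (2.71, adjusted p = 0.0669 from limma), Zg16 at 12.06 and 11.87 against 9.53 and 10.17 (2.11), Gp2, the main granule membrane protein, at 9.56 and 9.71 against 7.43 and 5.61 (3.12), and Cuzd1 at 7.19 and 7.58 against 5.15 and 5.44 (2.09). Spink1, which inhibits trypsin inside the acinar cell, differed by 1.51 and Reg1, a secreted acinar protein, by 1.67. Reg2, its neighbour in the Reg gene cluster, ran the other way, at 5.25 and 5.07 in diabetic and 6.05 on both TSA-treated arrays (-0.89, unadjusted p = 0.00183 and adjusted p = 0.902 from limma). The acinar transcription factors Ptf1a and Rbpjl lay between 2.98 and 4.31 on all 6 arrays, near background.

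The lists of other pancreatic cells were near background as a whole. The median level of the islet and duct genes was 3.10 and 3.37 in diabetic and 2.96 and 3.37 in TSA-treated mice. The islet gene Ptprn, between 5.19 and 5.87 on the 6 arrays, and the duct keratin Krt8, between 4.09 and 4.64, stood higher. Of 19 islet genes and 10 duct genes measured, limma called 0 and put 0 at an unadjusted p under 0.05, and their median differences were -0.07 and -0.03. The hormone genes Gcg and Ins2 lay between 2.45 and 2.62 and between 3.91 and 4.41 on the 6 arrays, and the duct keratin Krt19 between 3.08 and 3.52. The log2 of the summed signal of the islet list was 7.76 and 7.53 in diabetic and 7.68 and 7.87 in TSA-treated mice, and that of the duct list 6.85 and 6.83 against 6.59 and 6.95.

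**Figure D2:**
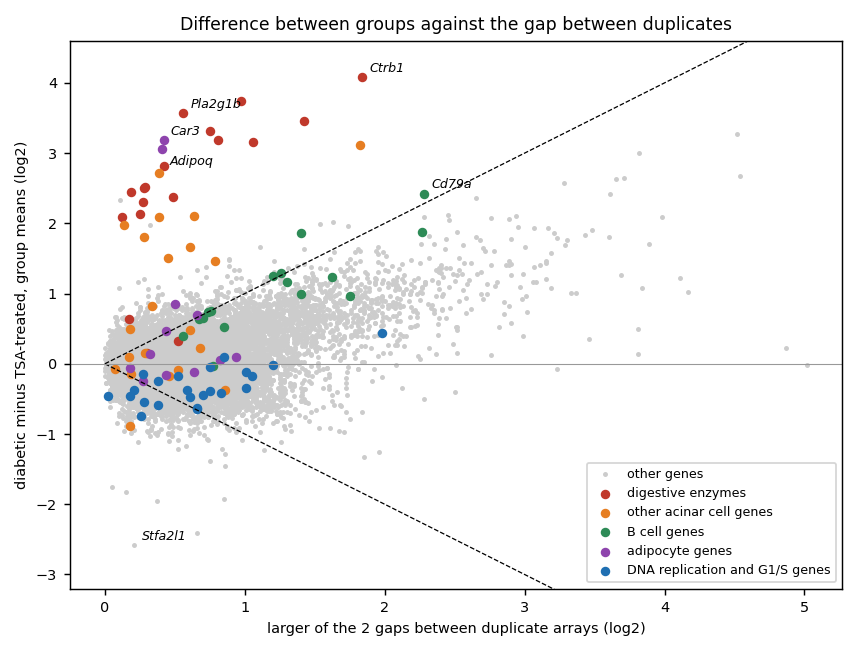
Difference of group means (log2, y axis) of each of 18193 genes against the larger of the gaps between its duplicate arrays (log2, x axis); dashed lines mark a difference equal to that gap. The digestive enzymes lie above the upper line except Amy1 and Klk1, 5 of 16 B cell genes lie above it, and DNA replication genes lie below 0 in 21 of 23, with 6 of them beyond the lower line.

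Car3 and Adipoq were the genes called higher in diabetic mice that do not code for pancreatic enzymes. Car3, carbonic anhydrase 3, is an abundant enzyme of fat and slow muscle, and Adipoq codes for adiponectin, a hormone of fat cells. Car3 measured 8.08 and 8.50 in diabetic and 5.09 and 5.13 in TSA-treated mice, a difference of 3.18 ± 0.19, or 9.08-fold, and Adipoq 5.72 and 6.13 against 2.83 and 2.88, a difference of 3.06 ± 0.19, or 8.37-fold (adjusted p = 0.0448 from limma for both). Unlike the enzymes, both were highest in untreated non-diabetic mice, where Car3 measured 9.02 and 8.99 and Adipoq 6.29 and 6.23, so that the TSA-treated pool stood apart from the other pools. The brightest of 4 Car3 probe sets carries the call; the others ranged down to -0.06, and the next differed by 0.50.

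Of 12 adipocyte genes limma called these 2, 4 were higher in diabetic mice at an unadjusted p under 0.05 and 0 lower, against 2.81% and 2.68% of all genes, and for 5 against 0 the difference was larger than both duplicate gaps, against 6.45% and 9.04%. The median difference was 0.12. Lep, leptin, lay between 2.67 and 2.97 and Cidec, of the lipid droplet, between 2.75 and 3.14 on the 6 arrays, below the array medians of 3.79 to 3.95, and Pparg, the fat cell regulator, lay between 4.12 and 5.31. Retn, resistin, another fat cell hormone, was at 5.40 and 5.23 against 4.21 and 4.71 (0.85, unadjusted p = 0.0079), and the lipogenic enzyme Scd1 differed by 0.70. Lpl, lipoprotein lipase, measured 9.74 and 10.13 against 9.25 and 9.69, without overlap. Fabp4, a fatty acid carrier that macrophages and capillaries also make, measured 6.43 and 6.87 against 6.62 and 7.0. The log2 of the list's summed signal was 11.71 and 12.14 in diabetic and 11.48 and 11.31 in TSA-treated mice.

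Stfa2l1, whose product inhibits cysteine proteases of the cathepsin type, measured 5.61 and 5.78 in diabetic and 8.38 and 8.17 in TSA-treated mice. It was higher in TSA-treated mice by 2.58 (standard error 0.19, adjusted p = 0.0448 from limma), or 5.99-fold, and stood at 5.23 and 4.90 in untreated non-diabetic mice. Stfa3, of the same family and known from neutrophils, was near background in diabetic mice, at 3.30 and 3.14, against 5.30 and 5.96 after TSA (-2.41, adjusted p = 0.128 from limma). A group of 5 genes, drawn by symbol after seeing the data, held Stfa2l1, Stfa3, Csta1, Cstdc1 and Cstdc2. Those other than Stfa2l1 and Stfa3 differed by -0.24 to 0.03 and reached at most 4.01 on any array. The group was set by symbol alone, so it does not show that all 5 belong to the stefin A family.

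The other genes over 1 higher in TSA-treated mice on all 4 array pairs did not pass the test. Saa3, an acute phase protein of macrophages, measured 4.91 and 4.96 in diabetic and 6.67 and 6.72 in TSA-treated mice. Apol11b, an apolipoprotein L gene, measured 8.53 and 8.68 against 10.36 and 10.49, and its second probe set, at 8.37 and 8.71 against 10.36 and 10.31, differed alike (-1.82 and -1.79, adjusted p = 0.0947 and 0.134 from limma). Pla2g4c, a cytosolic phospholipase A2, measured 4.99 and 5.36 against 6.98 and 7.30 in 1 of its 2 probe sets; the other differed by -0.13. Hbb-y, an embryonic beta-like globin, measured 3.15 and 3.71 against 4.93 and 5.78, a difference that 2 of its 3 probe sets showed (-1.92 and -1.78) and 1 did not (0.21).

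The next largest differences toward TSA-treated mice with arrays that did not overlap and an unadjusted p under 0.05 were not called. They include Gadd45a, a stress-induced growth arrest gene, at 6.62 and 7.48 against 8.44 and 8.23 (-1.28), Errfi1, a feedback inhibitor of EGF receptor signalling, at 5.01 and 5.87 against 6.93 and 6.87 (-1.46), and Pdk4, which holds back glucose oxidation, at 3.38 and 4.13 against 5.28 and 4.98 (-1.38). For all 3 the diabetic duplicates differed by more than the TSA-treated ones.

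**Figure D3:**
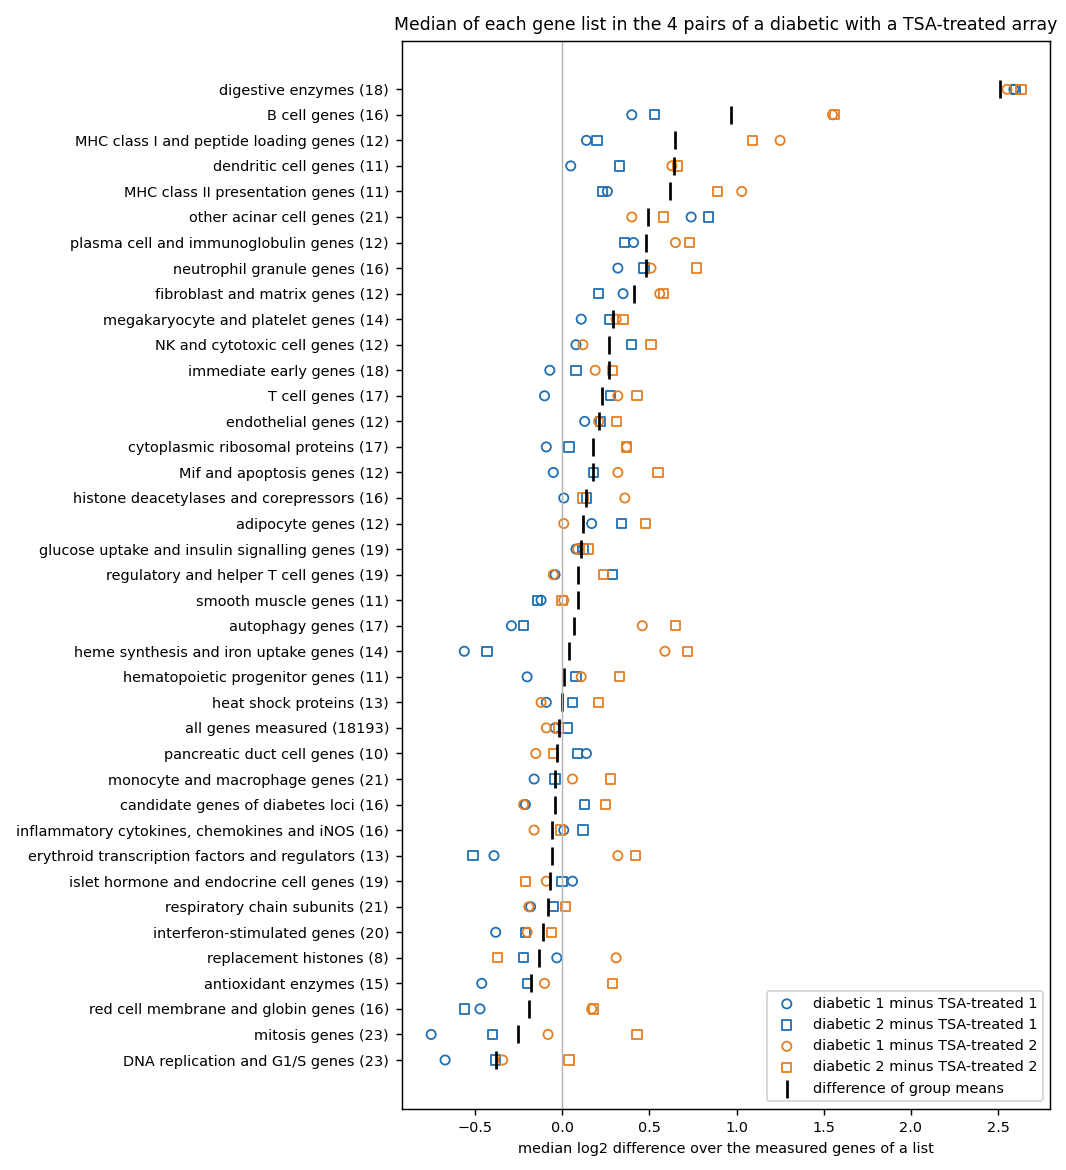
Median log2 difference of each gene list in the 4 pairs of a diabetic with a TSA-treated array (symbols) and between the group means (black bars); the number of genes measured is in parentheses. The digestive enzymes lie at 2.55 to 2.63 in every pair, while other lists shift with the TSA-treated array used, for example heme synthesis genes from -0.56 and -0.43 with replicate 1 to 0.59 and 0.72 with replicate 2.

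B cell genes had the second highest list median, 0.97 over 16 genes, but the TSA-treated arrays set its size. The median was 0.40 and 0.53 against TSA-treated replicate 1 and 1.55 and 1.56 against replicate 2. No B cell gene was called; for 12 of the 16 both diabetic arrays lay above both TSA-treated arrays and for 0 below, against 12.4% and 16.2% of all genes, and for 5 the difference was larger than both duplicate gaps. Cd79a, a signalling chain of the B cell receptor, measured 9.55 and 8.42 in diabetic and 7.70 and 5.42 in TSA-treated mice (2.42, unadjusted p = 0.0185). Its partner Cd79b measured 11.02 and 11.09 against 10.40 and 9.14, Ms4a1, which codes for CD20, 11.46 and 11.36 against 10.90 and 9.60, and Fcer2a, the low-affinity IgE receptor of mature B cells, 7.71 and 7.39 against 6.40 and 5.00 (1.86, unadjusted p = 0.00592). Replicate 1 was the higher TSA-treated array in 15 of the 16, and over all genes in 8264 of 18193. These genes sat at a median of 0.17 below non-diabetic mice in diabetic and 1.05 below in TSA-treated mice.

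The list median of plasma cell and immunoglobulin genes depended less on the array than that of B cell genes, but single members did depend on it. The immunoglobulin variable genes, given at the end, also shifted with the array. The median was 0.48 over 12 genes, between 0.36 and 0.73 in the 4 pairs, and 0 were called. For 10 of the 12 both diabetic arrays lay above both TSA-treated arrays, against 12.4% of all genes. Ighg3, an immunoglobulin G constant region gene, measured 7.68 and 8.0 against 5.84 and 5.89 (1.98 ± 0.18, adjusted p = 0.0704 from limma) and 10.25 and 10.12 in non-diabetic mice; its 4 probe sets ranged from -0.13 to 1.98. Tnfrsf17, the survival receptor BCMA of plasma cells, differed by 0.85 (unadjusted p = 0.0058), whereas Jchain, which links secreted IgA and IgM, differed by 0.24, from 13.01 and 13.12 to 12.89 and 12.76. Igha measured 13.83 and 13.97 against 13.41 and 12.28, and Irf4 7.83 and 8.26 against 7.22 and 4.76. For both genes TSA-treated replicate 2 was the lower array.

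Antigen presentation genes showed the same dependence on the array as B cell genes. MHC class II genes had a median of 0.62 over 11 genes, at 0.23 and 0.26 against TSA-treated replicate 1 and 0.89 and 1.03 against replicate 2; class I and peptide loading genes had 0.65 over 12, at 0.14 and 0.20 and at 1.09 and 1.25. Limma called 0 of either list, with 1 and 2 at an unadjusted p under 0.05. Cd74, the invariant chain, measured 11.99 and 11.69 against 11.45 and 8.38, so that TSA-treated replicate 2 alone stood low. H2-DMb2, which loads peptides onto class II molecules, measured 9.77 and 8.04 against 7.78 and 7.14, and Tapbp, tapasin of the class I loading complex, 8.99 and 9.08 against 8.53 and 7.04. Dendritic cell genes had a median of 0.64 over 11 genes with 0 called, which was 0.26 without TSA-treated replicate 2 and 0.69 without replicate 1. Clec10a, a lectin of dendritic cells and macrophages, measured 4.88 and 5.03 against 4.25 and 4.38 (0.65, unadjusted p = 0.0107).

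**Figure D4:**
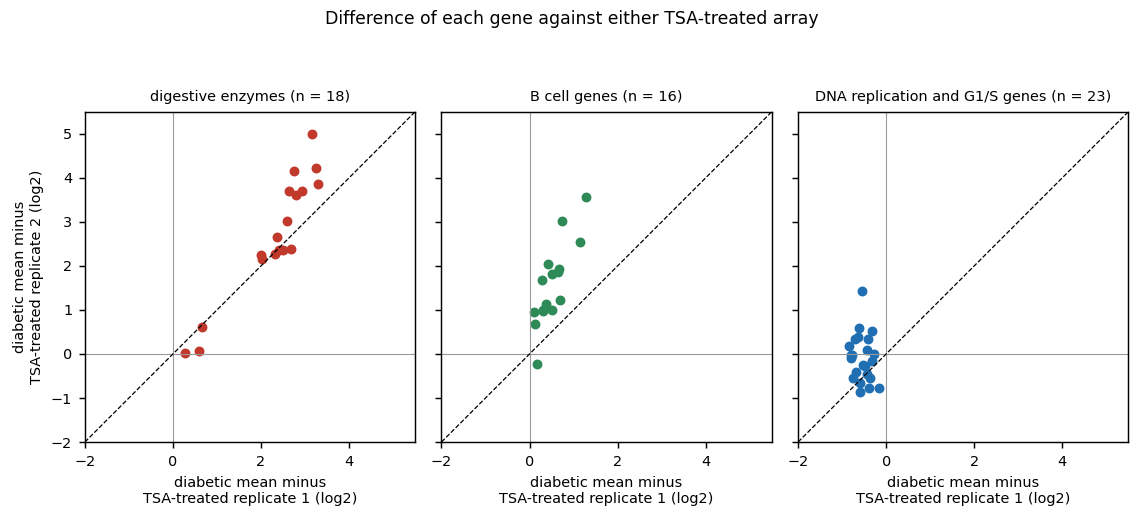
Mean of the diabetic arrays minus TSA-treated replicate 1 (x axis, log2) and minus replicate 2 (y axis, log2) for the genes of 3 lists; the dashed line marks equal differences. Digestive enzymes lie far from 0 on both axes, B cell genes lie above the dashed line with 1 exception, and DNA replication genes lie below 0 on the x axis in 23 of 23 and on either side of 0 on the y axis.

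Neutrophil granule genes had a median of 0.48 over 16 genes, at 0.32 to 0.77 in the 4 pairs, and 0 were called. For 11 of the 16 both diabetic arrays lay above both TSA-treated arrays and for 1 below, against 12.4% and 16.2% of all genes. Elane, neutrophil elastase, measured 8.53 and 7.72 against 6.92 and 5.29 (2.02), Mpo, myeloperoxidase, 9.22 and 9.31 against 8.68 and 7.64 (1.10), Ltf, lactoferrin, 9.53 and 9.84 against 8.96 and 7.15 (1.63), and Camp, cathelicidin, 11.26 and 11.31 against 10.69 and 10.60 (0.63); their unadjusted p lay between 0.00694 and 0.0267. S100a9, of the cytosol of mature neutrophils, differed by 0.32. Of the 3 genes of the list with a difference below 0, Stfa3, described above, was the 1 whose arrays did not overlap.

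Megakaryocyte and platelet genes differed little but in 1 direction: all 14 differences lay above 0. Their median was 0.29 (0.19 without TSA-treated replicate 2). For 9 of the 14 both diabetic arrays lay above both TSA-treated arrays, against 12.4% of all genes. Pf4, platelet factor 4, measured 11.64 and 11.75 against 11.36 and 11.43, and Ppbp, another platelet chemokine, 11.83 and 12.20 against 11.73 and 11.27; 0 were called and 0 had an unadjusted p under 0.05. Monocyte and macrophage genes had a median of -0.04 over 21 genes. C1qa, a complement component of macrophages, measured 9.30 and 7.36 in diabetic and 7.24 and 3.42 in TSA-treated mice, with wide gaps inside both groups. The other C1q genes overlapped: C1qb measured 9.44 and 9.15 against 9.72 and 9.37, and C1qc 9.44 and 9.21 against 9.25 and 6.72. At an unadjusted p under 0.05 from limma 1 gene of the list was higher in diabetic and 1 in TSA-treated mice, against 2.81% and 2.68% of all genes. They were Lyz2, a lysozyme gene, at 12.46 and 12.90 against 12.19 and 10.74 (unadjusted p = 0.0404), and Cd163, the hemoglobin scavenger receptor of red pulp macrophages, at 5.18 and 4.87 against 5.68 and 5.57 (-0.60, unadjusted p = 0.0149).

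T cell genes had a median of 0.23 over 17 genes and the regulatory and helper T cell genes 0.09 over 19, with 0 called. Both depended on the arrays compared. Without TSA-treated replicate 2 the T cell median was 0.05 and without replicate 1 it was 0.42, and the other list gave 0.17 and 0.03. The T cell pair medians were -0.10 and 0.32 for diabetic replicate 1 and 0.28 and 0.43 for diabetic replicate 2. Those of the other list were -0.04 and -0.05, then 0.29 and 0.24, so that its sign changed with the diabetic array. Cd4 measured 7.13 and 6.57 against 6.01 and 6.14 (0.78, unadjusted p = 0.0136). Lef1, a transcription factor of naive and developing T cells, ran the other way, at 6.81 and 7.06 against 7.53 and 7.58 (-0.62, unadjusted p = 0.0123). Tnfrsf18, the costimulatory receptor GITR, measured 7.51 and 7.46 against 6.81 and 6.49 (0.84, unadjusted p = 0.0032). NK and cytotoxic cell genes had a median of 0.27 over 12, with 0 called, 9 differences above 0 and 3 below. The pair medians were 0.08 and 0.12 for diabetic replicate 1 and 0.40 and 0.51 for diabetic replicate 2. Gzma, granzyme A, had the smallest p, at 8.03 and 8.69 against 6.92 and 7.12 (1.34, unadjusted p = 0.00199 and adjusted p = 0.902 from limma). The NK cell markers Ncr1, at 3.46 and 4.35 against 3.78 and 3.49, and Klrd1, at 7.54 and 7.96 against 7.67 and 8.02, overlapped.

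Fibroblast and matrix genes had a median of 0.41 over 12 genes, in which Dcn, decorin, measured 8.08 and 7.80 against 6.72 and 5.18 (1.99, and 0.19 in its other probe set), Col3a1, the fibrillar collagen of the splenic reticulum, 9.17 and 9.48 against 8.38 and 8.15 (1.06), and Cxcl13, the chemokine that draws B cells into follicles, 10.74 and 11.35 against 10.20 and 9.96 (0.97). The unadjusted p from limma was 0.00655, 0.00149 and 0.0073, and 0 were called. These are members with the smallest p. Of the 12 differences, 9 lay above 0 and 3 below. For 6 genes both diabetic arrays lay above both TSA-treated arrays and for 1 below, against 12.4% and 16.2% of all genes. Col1a1, another collagen gene, measured 4.49 and 4.66 against 4.52 and 4.64. Endothelial genes had a median of 0.21 over 12 genes and smooth muscle genes 0.09 over 11 (0.01 without TSA-treated replicate 2 and 0.31 without replicate 1), of which Acta2, smooth muscle actin, measured 9.16 and 9.05 against 9.49 and 9.39.

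The medians of the cell cycle lists ran toward TSA-treated mice in every array pair except diabetic replicate 2 with TSA-treated replicate 2. DNA replication and G1/S genes had the lowest median of all lists, -0.38 over 23 genes, with 0 called. At an unadjusted p under 0.05 from limma 7 were higher in TSA-treated mice, against 2.68% of all genes. For 9 both TSA-treated arrays lay above both diabetic arrays, against 16.2% of all genes. TSA-treated replicate 1 lay above both diabetic arrays for 23 of the 23 genes, and replicate 2 for 9; over all genes the shares were 27.9% and 41.8%. Mitosis genes, with a median of -0.25 over 23, gave 23 and 7. For diabetic replicates 1 and 2 in turn, the pair medians of the first list were -0.67 and -0.38 against TSA-treated replicate 1 and -0.34 and 0.04 against replicate 2. Those of the second list were -0.75 and -0.40, and -0.08 and 0.43. The median of the first list was -0.10 without diabetic replicate 1 and also without TSA-treated replicate 1, so that it depended on the arrays of both sides.

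Prim1, the DNA primase subunit, measured 8.81 and 8.94 in diabetic and 9.48 and 9.74 in TSA-treated mice (-0.74, unadjusted p = 0.00657), Rrm2, which makes deoxynucleotides, 11.58 and 11.61 against 11.99 and 12.37 (-0.58), and Cdt1, which loads the replicative helicase, 10.79 and 10.80 against 11.24 and 11.26 (-0.46). Ttk, a spindle checkpoint kinase, differed by -0.78 and Cdc20, which triggers anaphase, by -0.54. In untreated non-diabetic mice Prim1 measured 8.03 and 7.83 and Rrm2 10.83 and 10.86, below both other groups, and the median of the replication list was 0.70 higher in diabetic and 1.07 higher in TSA-treated than in non-diabetic mice.

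Red cell genes changed sign with the TSA-treated array. Membrane and globin genes had a median of -0.19 over 16 genes, -0.47 and -0.56 against replicate 1 and 0.17 and 0.18 against replicate 2; heme synthesis and iron uptake genes had 0.04 over 14, and erythroid transcription factors and regulators -0.06 over 13, with the same turn (-0.39 and -0.51, then 0.32 and 0.42). None was called. Alas2, the first enzyme of heme synthesis in red cell precursors, measured 11.24 and 10.96 in diabetic and 11.39 and 8.60 in TSA-treated mice. Both TSA-treated arrays lay above both diabetic arrays for 5, 4 and 3 members of the lists in turn, against 16.2% of all genes. They lay below both for 1, 0 and 2, against 12.4%. Above were Urod, a later enzyme of heme synthesis, at 11.38 and 11.53 against 12.24 and 12.31 (-0.82, unadjusted p = 0.00206), Epb42, a protein of the red cell membrane skeleton, at 7.90 and 8.18 against 8.88 and 8.77 (-0.78), and Tal1, a regulator of red cell precursors, at 10.31 and 10.64 against 10.97 and 10.94 (-0.48). Below was the erythroid regulator Ldb1, at 5.68 and 3.63 against 3.58 and 2.94. The probe set that detects the alpha globins together was near the top of the scale, at 14.80 and 14.77 against 14.80 and 14.64. Hematopoietic progenitor genes had a median of 0.01 over 11.

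Of the 21 measured genes that the study followed by qRT-PCR, 9 were pancreatic enzymes, described above, and 12 were others. The study chose the enzymes, and a set of genes higher after TSA, from these arrays, so that for those genes the direction here is not independent evidence. None of the 12 passed the test. Sod1, superoxide dismutase, measured 11.20 and 11.25 in diabetic and 11.74 and 12.14 in TSA-treated mice (-0.71, unadjusted p = 0.011), Ermap, a red cell adhesion protein, 10.87 and 11.17 against 11.55 and 11.84 (-0.67), Marchf5, a mitochondrial ubiquitin ligase, 10.10 and 10.44 against 10.91 and 10.85 (-0.61), and Atg4a, which processes the autophagy protein LC3, 9.43 and 9.79 against 10.28 and 10.10 (-0.58). Stmn1, which destabilizes microtubules, differed by -0.47, H2az1, a replacement histone, by -0.55, Mki67, the proliferation marker, by -0.34 and Txn1, thioredoxin, by -0.31. For these 8 genes both TSA-treated arrays lay above both diabetic arrays, as for 16.2% of all genes. Mif, a cytokine, measured 8.08 and 8.26 against 8.14 and 6.48, with TSA-treated replicate 2 alone low, as for Cd74. Gpx1, glutathione peroxidase, and Lclat1, an acyltransferase, measured 13.33 and 13.21 against 13.75 and 13.15, and 6.81 and 7.18 against 7.10 and 6.70, and overlapped.

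The remaining lists held no called gene and medians within 0.30 of 0. Interferon-stimulated genes, at -0.11 over 20, were the list with all 4 pair medians below 0 (-0.38 to -0.06). It held members of either direction: Rsad2, viperin, at 12.58 on both diabetic arrays against 13.10 and 13.14 (-0.53, unadjusted p = 0.0116), Igtp, an interferon-induced GTPase, at 8.72 and 9.12 against 9.76 and 9.45 (-0.68), and Cxcl9, a chemokine induced by interferon gamma, at 7.98 and 8.65 against 7.69 and 7.50 (0.72). Inflammatory cytokines, chemokines and iNOS had -0.06 over 16, with Il1b at 7.35 and 7.89 against 7.04 and 6.42 (0.89, unadjusted p = 0.0216). Candidate genes of diabetes loci had -0.04 over 16, Mif and apoptosis genes 0.18 over 12, antioxidant enzymes -0.18 over 15 and autophagy genes 0.07 over 17. Cat, catalase, measured 10.24 on both diabetic arrays against 10.67 and 11.13 (-0.66, unadjusted p = 0.0222).

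Of the genes for TSA's own targets, 16 histone deacetylases and corepressors had a median of 0.14 and ran either way. Hdac7 measured 6.57 and 6.08 against 5.96 and 5.38 (0.66) and Rcor1, a corepressor that brings deacetylases to chromatin, 6.87 and 7.13 against 7.55 and 7.85 (-0.70, unadjusted p = 0.0123). The injections had ended by 24 weeks of age, before the spleens were taken. Replacement histones had a median of -0.13 over 8, immediate early genes 0.27 over 18, heat shock proteins -0.00 over 13, glucose uptake and insulin signalling genes 0.11 over 19, respiratory chain subunits -0.08 over 21 and cytoplasmic ribosomal proteins 0.18 over 17. Ier3, a stress-induced survival gene, measured 4.49 and 4.62 against 5.39 and 5.60 (-0.94, unadjusted p = 0.00169).

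Of 38 lists, leaving out the qRT-PCR genes, 15 had all 4 pair medians above 0, 1 had all 4 below 0, and 5 turned from below 0 against TSA-treated replicate 1 to above 0 against replicate 2. The 5 were the 3 red cell lists, monocyte and macrophage genes and autophagy genes. Another 2, pancreatic duct cell genes and inflammatory cytokines, chemokines and iNOS, turned the other way.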

How the data were processed

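Spleen RNA was hybridized to 6 mouse whole-genome expression arrays, of which the 4 of diabetic and TSA-treated mice are reported. The authors deposited log2 values made by robust multi-array averaging (background correction, quantile normalization across arrays, 1 value per probe set); detection flags and scanner values were not used here. Of 45101 probe sets, 64 controls were left out and 45037 tested. Per the platform annotation 34945 name 1 gene, 932 several and 9160 none; a gene is its brightest probe set naming it alone, which gave 18193 genes. Promoters came from RefSeq (GRCm38.p6).

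Differences were tested with limma 3.58.1 in R 4.3.3 on all 6 arrays, with group as the only term and Benjamini-Hochberg adjustment over 45037 probe sets. The fit had 3 residual degrees of freedom, and the number of arrays limits the precision. The members and the 39 gene lists (682 entries, 650 genes, 577 measured) were chosen with earlier results of these data known. Named genes were those of called probe sets, the 12 largest differences each way with an unadjusted p under 0.05 and arrays that did not overlap, 4 members with the smallest p and the first 3 members of each list, and the genes followed by qRT-PCR. Clps, Prss3, Klk1, Spink1, Ptf1a, Rbpjl, Lep, Cidec, Pparg, Lpl, C1qb, C1qc and D13Ertd608e were named after their values were seen.

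Alternatives were the replicate number as a block, leaving out each array, the 2 groups alone, intensity trend, robust variances, the LPE test written anew with 100 bins, the methods' t-test, a filter on dim probe sets, renewed quantile normalization, median centring, the mean of a gene's probe sets and leaving out acinar lists. The crossed block and the count of differences over 1 in all 4 array pairs were added after seeing the data. The fits were tested on simulated data. Deviations of same-numbered arrays correlated at -0.105 between diabetic and TSA-treated, -0.335 between diabetic and non-diabetic and -0.0363 between TSA-treated and non-diabetic arrays, so the numbers were not taken as pairs.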

Additional observations from a re-analysis of the deposited data

Results flagged for a closer look

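The control probe sets, which entered no comparison, had wider gaps between their 3′ and 5′ ends than on either untreated non-diabetic array in 7 of 8 cases; the exception was Gapdh on the first diabetic array, at 1.82. For Gapdh the second diabetic array had 3.19 (log2) and the TSA-treated pair 3.85 and 4.58, above the 2.67 of the wider non-diabetic array. For beta-actin the diabetic pair had 2.42 and 3.32 and the TSA-treated pair 3.45 and 5.61, above 2.35. Both controls were widest on the TSA-treated arrays, and their part in any gene's difference was not tested.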

How the results depend on the processing

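The 11 probe sets higher in diabetic and 1 higher in TSA-treated mice became 0 and 0 with the replicate number as a block (1516 probe sets at an unadjusted p under 0.05 from limma), with the crossed pairing (1829), with the 2 groups alone (880), with median centring (1685), by the methods' t-test after adjustment (1359) and at an adjusted p under 0.001 from limma. With single arrays left out, counts ran from 0 to 921 and from 0 to 126; only without TSA-treated replicate 1 were there any. The LPE test gave 57 and 2, or 39 and 0 at an adjusted p under 0.001; the methods' t-test at an unadjusted p under 0.001 gave 8 and 16, so that more were higher in TSA-treated mice. Probe sets above the median level gave 20 and 2, and the mean of a gene's probe sets 17 and 4 genes, Car3 and Pla2g1b no longer among them. Without the acinar lists 3 called probe sets higher in diabetic mice were left, those of Car3, Adipoq and the pancreatic trypsin gene 2210010C04Rik, which the lists do not hold. An intensity trend (15 and 1), robust variances (11 and 1) and renewed quantile normalization (13 and 1) stayed within 1.5 times.

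Probe sets whose arrays did not overlap numbered 5127 and 7276, with single arrays left out 12837 to 13233 and 12083 to 19491, since fewer arrays must then be separated, above the median level 3202 and 2808, and with a difference over 1 in all 4 pairs 56 and 15. The median of the digestive enzymes was 2.42 after renewed quantile normalization, 2.85 with the mean of a gene's probe sets and 2.51 to 2.58 with single arrays left out. None of the 89 named genes with a reported difference changed direction under any of these alternatives. Where the arrays of a gene did not overlap, leaving 1 array out cannot turn its direction. Genes given by their levels alone were not counted. Among these, Alas2 lay at 11.24 and 10.96 in diabetic mice, below TSA-treated replicate 1 (11.39) and above replicate 2 (8.60). Of the 39 list medians, 6 to 8 changed sign with single arrays left out, 5 after renewed quantile normalization, 4 with the mean of a gene's probe sets and 2 with median centring.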

Other observations

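Gene families were grouped by symbol after seeing the data. Of 10 clustered histone genes, which supply histones during DNA replication, both TSA-treated arrays lay above both diabetic arrays for 6 and below for 0. Over all genes the shares were 16.2% and 12.4%. The median difference was -0.26 with 0 called, and 4 had an unadjusted p under 0.05 from limma, higher in TSA-treated mice, against 2.68% of all genes. H1f2, a linker histone, measured 10.28 and 10.60 in diabetic and 11.59 and 11.36 in TSA-treated mice (-1.03), and H2bc21 6.37 and 6.41 against 7.22 and 7.74 (-1.09). H3c11 differed by -1.03 and H3c4 by -0.93, both at levels under 5.

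Of 15 immunoglobulin variable genes, 14 differences lay above 0, with a median of 0.92 and 0 called. For 9 both diabetic arrays lay above both TSA-treated arrays, against 12.4% of all genes. At an unadjusted p under 0.05 from limma 3 were higher in diabetic mice, against 2.81% of all genes. The pair medians were 0.23 and 0.48 against TSA-treated replicate 1 and 1.47 and 1.89 against replicate 2.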
